A study of Microcebus murinus with 18 samples.

Results

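The myelin and oligodendrocyte genes described here are 42 genes of 19775 that had at least 1 probe set with a single gene symbol on the human HG-U133 Plus 2.0 array. They were taken as a list of known myelin proteins, lipid enzymes, lineage factors, receptors and other genes typical of oligodendrocytes, and not by their values on these arrays. All 42 had a probe set, 93 in total, and each gene was followed with the probe set of the highest mean signal among those bright enough to test.

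RNA came from the temporal cortex of the right hemisphere of 18 grey mouse lemurs (*Microcebus murinus*), a small primate, with 1 array for each animal. The 2 AD-like animals were old females with ß-amyloid plaques and cortical atrophy, the 10 old animals (7 females and 3 males) were healthy, and the 6 young adults were 4 females and 2 males. All were born in captivity in 1 colony, and no AD-like male was studied, so sex and pathology are partly tied. The paper gives a higher mean age for the AD-like animals than for the old ones, with wide spreads, so age and pathology are partly tied too. Since the AD-like group has 2 animals, its spread was taken from all 3 groups together. The samples were pieces of cortex and not sorted cells, so fewer oligodendrocytes and less RNA per oligodendrocyte cannot be told apart. Human probes were hybridised with lemur RNA, and a probe set that matches the lemur transcript poorly reads low whatever the amount of RNA. Signals of the same probe set were therefore compared between animals, and no order of expression between genes was read from them.

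Oligodendrocytes arise from precursor cells that divide under platelet-derived growth factor, and a set of transcription factors then directs their maturation. Mature cells wrap axons in many layers of membrane that are rich in galactolipids and cholesterol and are held together by a few abundant proteins. In the cortex the sheaths lie mainly around axons of the deep layers.

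The signals are linear intensities scaled to a trimmed mean of 100 on each array. The median signal of an array ranged from 30.7 to 54.4, and 12060 to 17887 probe sets per array reached a signal of 100. A probe set was kept for testing when its third-highest signal over the 18 arrays was at least 150, which held for 14567 probe sets. Of the 42 members, 25 (59.5%) had a kept probe set, against 8660 of the 19775 genes (43.8%), and 36 of the 93 member probe sets were kept. On 4 arrays (AD-like F2, old M1, old M2 and young adult M2) the spiked poly-A control was near background, the highest of them reading 19.0, whereas it read 334 or more on 14. This split is called the control RNA batch and is given where it touched a result.

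**Figure D1:**
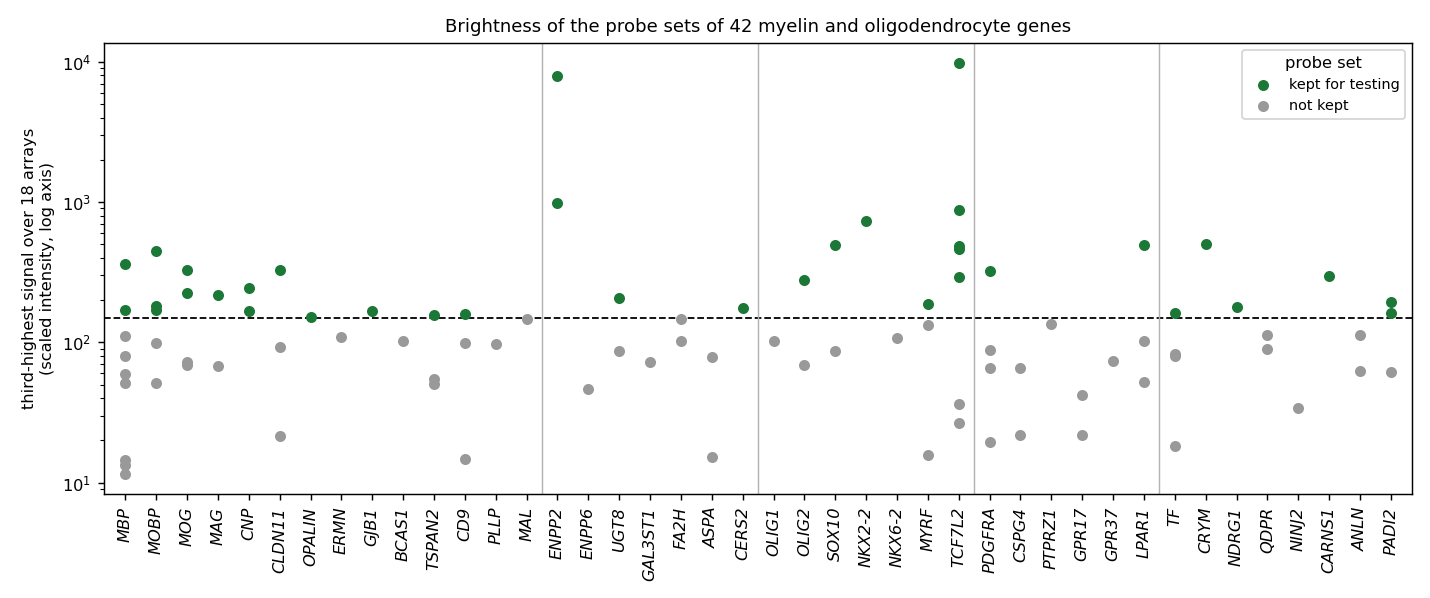
Third-highest signal over the 18 arrays (log axis) of each of the 93 probe sets of the 42 genes, with 1 point for each probe set, genes along the horizontal axis and grey lines between gene classes. The dashed line marks the limit of 150; 36 green probe sets lie at or above it, and the 17 genes that have only grey points were not tested.

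The classes differed in how many members could be tested. Of 14 myelin proteins 10 had a kept probe set, of 7 lipid enzymes 3, of 7 lineage factors 5, of 6 precursor genes and receptors 2, and of 8 other members 5. The 17 genes without a kept probe set were ERMN, BCAS1, PLLP and MAL among the myelin proteins, ENPP6, GAL3ST1, FA2H and ASPA among the lipid enzymes, OLIG1 and NKX6-2 among the lineage factors, CSPG4, PTPRZ1, GPR17 and GPR37 among the precursor genes and receptors, and QDPR, NINJ2 and ANLN. Their mean signals ran from 17.2 to 103. Of the 25 tested members, 12 had a mean signal under 150 and 11 had one from 150 to 500. ENPP2 and TCF7L2 were brighter, with means of 4632 and 4817. Of markers of other cell types, 9 of 10 for neurons, 7 of 10 for astrocytes, 2 of 9 for microglia, 2 of 8 for endothelium and 2 of 5 for choroid plexus had a kept probe set. Such counts above a brightness limit, which 43.8% of all genes passed, cannot check the label of the tissue.

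In none of the 3 comparisons did a member pass the threshold after Benjamini-Hochberg adjustment over all kept probe sets. The smallest adjusted p of a member was 0.836 for old against young adult, 0.972 for AD-like against old and 1.00 for AD-like against young adult (limma). Over all kept probe sets the share that passed was 0%, 0.00686% (1 probe set) and 0% in the same order. Before adjustment, 1 of the 25 tested members, CRYM, had a p under 0.05 for old against young adult, and it was higher in old animals. That is 4% of the members, against 5.91% of all kept probe sets (3.49% higher and 2.42% lower in old). CERS2 was the 1 such member for AD-like against old and was lower in AD-like animals, where 4.84% of all kept probe sets had such a p (1.22% higher and 3.62% lower). It was also the 1 such member for AD-like against young adult, where the share of all kept probe sets was 4.34% (1.13% higher and 3.21% lower). The members' shares were thus no higher than those of all probe sets.

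None of the 25 tested members had signals that did not overlap between groups. Of the 17 members too dim to test, ENPP6 was higher without overlap in AD-like animals than in old and young adult animals, BCAS1 was higher than in old animals, and NINJ2, at 5.45 and 7.57, was below the lowest young adult, at 8.62. Over all kept probe sets, groups did not overlap for 0.0343% of old against young adult (0.0206% higher and 0.0137% lower), 3.02% of AD-like against old (1.39% and 1.63%) and 5.59% of AD-like against young adult (2.62% and 2.97%). The share among probe sets that were not kept, to which those of ENPP6, BCAS1 and NINJ2 belong, was not computed. These 3 genes therefore have no share to be set against. Estimates above 0 were found in 11 of 25 members for old against young adult, where 53.9% of all kept probe sets were above 0. They were found in 14 members for AD-like against old (48.1% of all) and in 13 for AD-like against young adult (51.3% of all). The median differences of the members were -0.11, 0.03 and 0.05 on the log2 scale, beside 0.03, -0.02 and 0.01 over all kept probe sets.

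The precision sets how far these results reach. The median standard error of a member was 0.34 on the log2 scale between old and young adult animals and 0.51 between AD-like and old animals. Intervals of 95% were accordingly wide, and that of MOG, for example, ran from -1.38 to 0.75 between old and young adult animals. Changes of that size in either direction would thus be compatible with the data for this gene. All log2 differences given below are on the scale of log2(signal + 16), which understates the change of dim probe sets, and are given as the estimate ± the standard error.

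**Figure D2:**
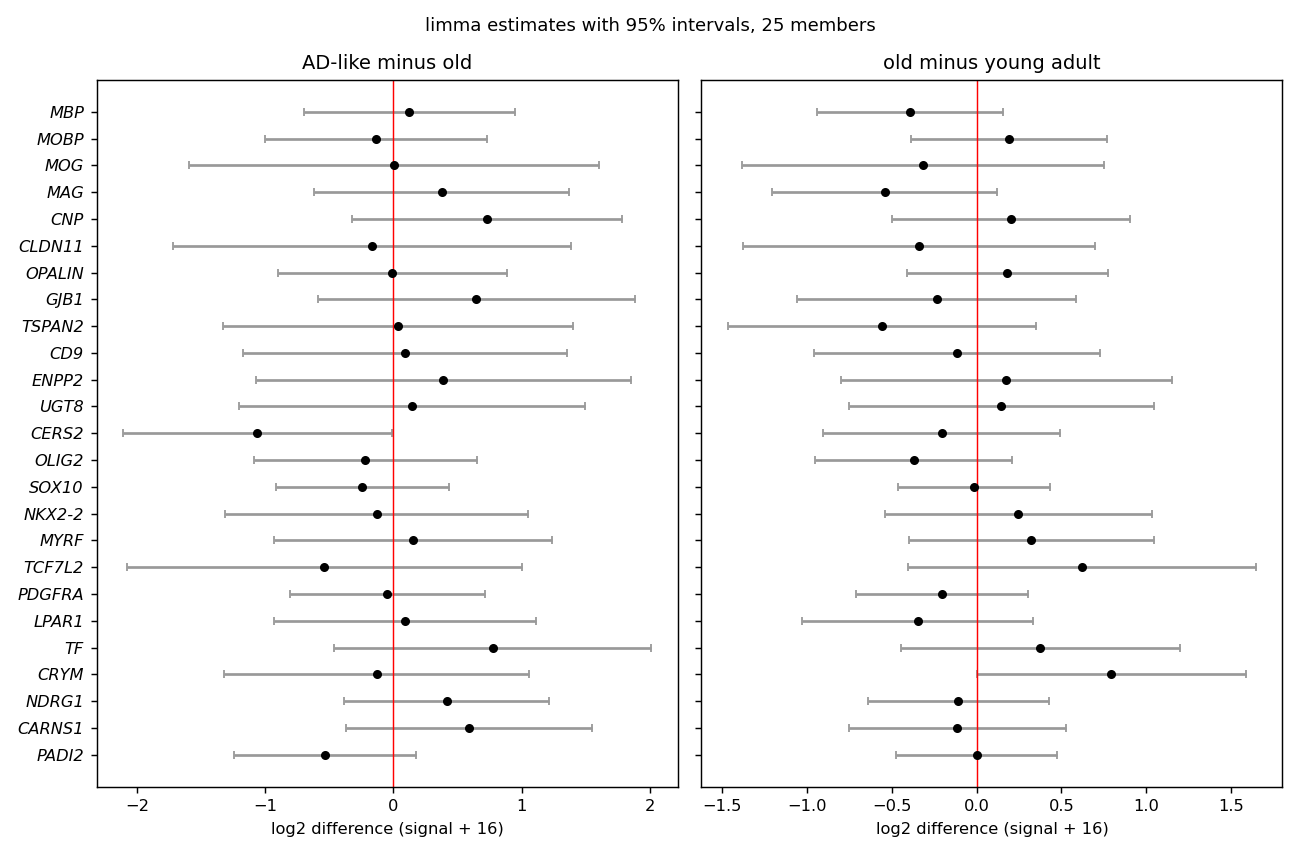
Log2 differences with 95% intervals (limma) for the 25 tested members, AD-like minus old on the left and old minus young adult on the right, with a red line at no difference. All intervals include 0 but those of CERS2 on the left (-1.06) and CRYM on the right (0.79).

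Among the myelin proteins, MBP, which joins the inner faces of the myelin membrane, read 105 and 379 in the AD-like animals. In old animals it ran from 125 to 286 with a median of 195, and in young adults from 161 to 371 with a median of 245. The 2 AD-like animals thus lay on either side of all old animals, AD-like F1 below and AD-like F2 above them. Of the old animals, 9 of 10 were at or below the young adult median, and the difference of old minus young adult was -0.40 ± 0.26 (limma, adjusted p = 0.864). A second probe set of MBP gave 0.07 ± 0.47 for the same comparison.

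MOBP, a small basic protein of compact central myelin, read 313 and 239 in the AD-like animals. Old animals ran from 212 to 452 with a median of 272, and young adults from 116 to 491 with a median of 279. The groups overlapped almost completely, and the difference of old minus young adult was 0.19 ± 0.28. The other kept probe sets of the gene gave -0.37 ± 0.42 and 0.10 ± 0.45, so that the 3 probe sets did not share a sign.

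MOG, which lies on the outer surface of the sheath, read 217 and 108 in the AD-like animals. It ran from 8.37 to 444 with a median of 211 in old animals and from 77.9 to 360 with a median of 261 in young adults. The lowest value was that of old M2, and the difference of old minus young adult was -0.32 ± 0.51.

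MAG, an adhesion protein of the innermost layer facing the axon, showed the smallest p of the myelin proteins between old and young adult animals. It read 150 and 106 in the AD-like animals. In old animals it ran from 57.1 to 218 with a median of 72.5, and in young adults from 67.1 to 288 with a median of 156. Of the old animals 5 lay below every young adult and 8 of 10 below the young adult median, but old M3, at 218, was as high as young adult M1. The difference of old minus young adult was -0.54 ± 0.32 (limma, adjusted p = 0.854). It was -0.73, with an unadjusted limma p of 0.0347, without young adult F2, the lowest of its group, and -0.66, with a p of 0.0405, without old M3. Without young adult F2 more of all kept probe sets had a p under 0.05 too, 810 higher and 442 lower, beside 509 and 352 in the main fit.

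CNP, an enzyme of the cytoplasm-filled parts of the sheath, read 96.9 and 269 in the AD-like animals. Old animals ran from 33.4 to 144 with a median of 97.9, and young adults from 21.3 to 180 with a median of 71.6. AD-like F2 was above every old animal while AD-like F1 lay just under the old median. The difference of AD-like minus old was 0.73 ± 0.51 (limma, adjusted p = 0.972), and it was 0.06 without AD-like F2. The difference of AD-like minus young adult was 0.94 ± 0.53 (limma, adjusted p = 1.00). The second probe set of CNP gave 0.13 ± 0.77 for AD-like minus old.

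CLDN11, which seals the layers of central myelin as a tight junction protein, read 350.7 and 67.7 in AD-like F1 and F2. Its range was 24.4 to 328 in old animals, with a median of 230, and 31.5 to 585 in young adults, with a median of 309. Of the old animals 8 of 10 lay below the young adult median, and the difference of old minus young adult was -0.34 ± 0.50.

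The remaining tested myelin proteins were OPALIN, a membrane protein of oligodendrocytes, GJB1, a connexin of their gap junctions, and the tetraspanins TSPAN2 and CD9. TSPAN2 had the lowest estimate between old and young adult animals, -0.56 ± 0.44, with signals from 6.36 to 171 in old animals and from 40.5 to 161 in young adults. Those of OPALIN, GJB1 and CD9 were 0.18 ± 0.29, -0.24 ± 0.40 and -0.12 ± 0.41. Over the 10 myelin proteins 3 estimates were above 0 and 7 below, with a median of -0.28. Between AD-like and old animals 7 were above 0 and 3 below, with a median of 0.06. None of these 20 estimates had an unadjusted p under 0.05 in limma. BCAS1, which marks oligodendrocytes that have begun to myelinate and was too dim to test, read 83.9 and 103 in the AD-like animals, 6.39 to 81.8 in old animals and 21.7 to 218 in young adults.

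**Figure D3:**
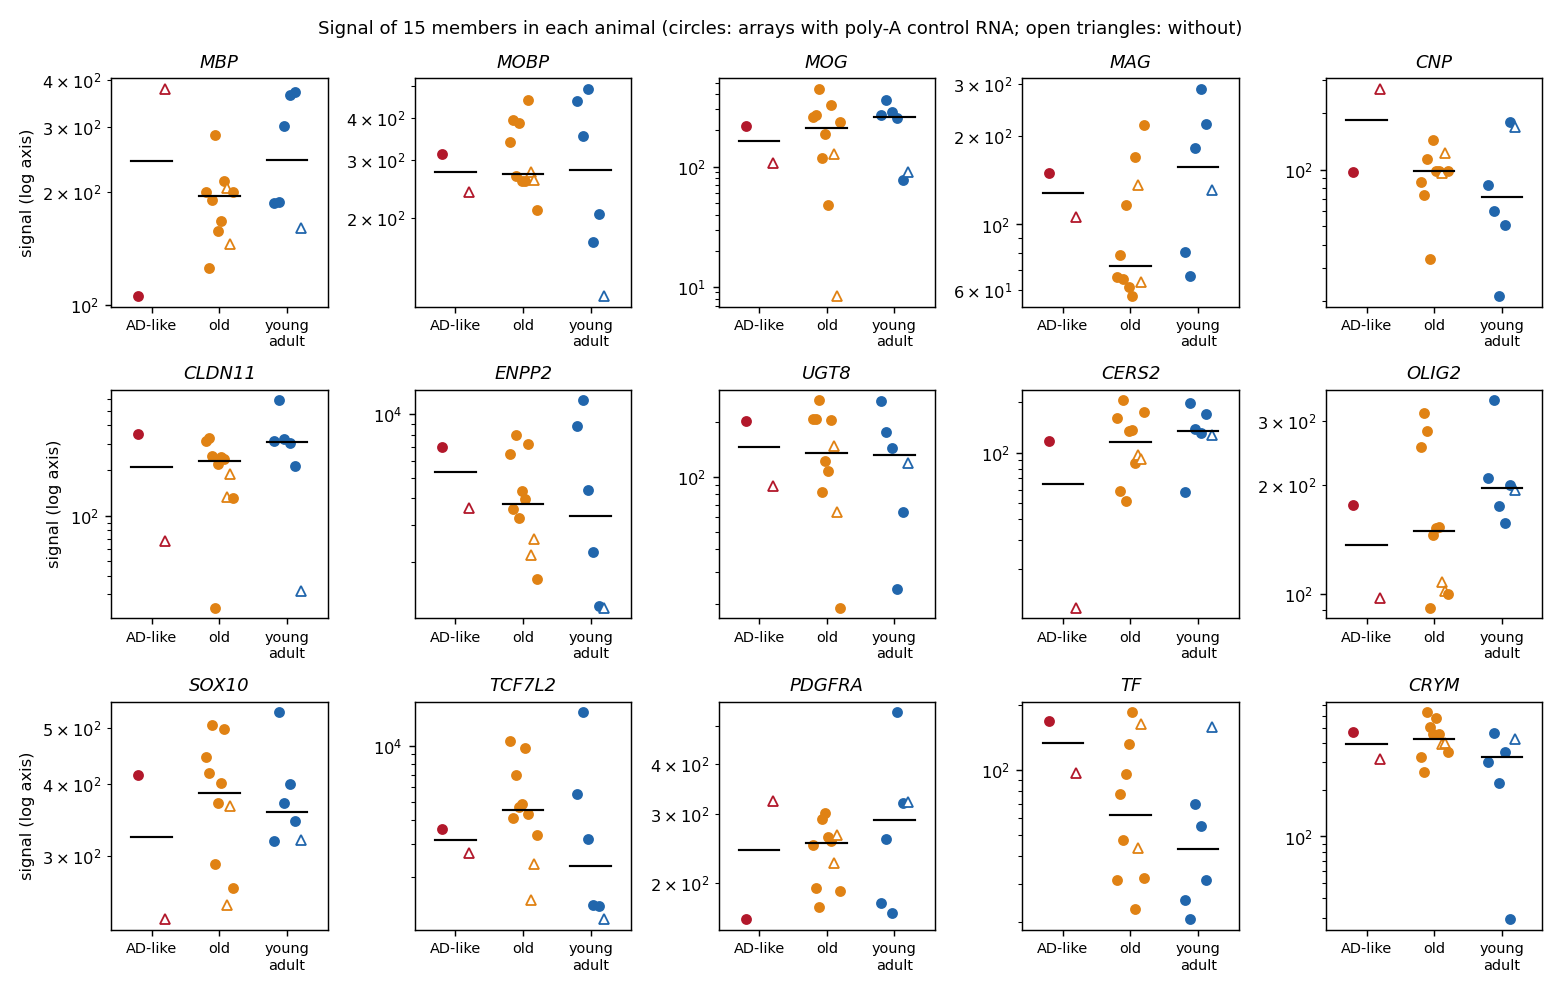
Signals (log axes, each with its own range) of 15 members in every animal, with AD-like animals on the left, old animals in the middle and young adults on the right, and a black line at the median of each group. Filled circles are the 14 arrays with poly-A control RNA and open triangles the 4 without; in MBP the AD-like values of 105 and 379 lie on either side of all old animals, and in CERS2 the AD-like value of 11.7 is an open triangle.

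Among the lipid enzymes, CERS2, which makes the ceramides with very long chains that are found in myelin lipids, read 117 and 11.7 in AD-like F1 and F2. Old animals ran from 51.5 to 206 with a median of 115, and young adults from 57.9 to 198 with a median of 135. The low value belonged to AD-like F2, on 1 of the 4 arrays without control RNA, while AD-like F1 was close to the old median. The difference was -1.06 ± 0.50 from old (limma, unadjusted p = 0.0475, adjusted p = 0.972) and -1.27 ± 0.53 from young adult animals (limma, unadjusted p = 0.0267). Without AD-like F2 it was 0.071 from old and -0.13 from young adult animals, and within the 14 arrays with control RNA 0.019 and -0.14, so that both calls rested on 1 array. Only 1 AD-like animal remains in either case. The p of the difference from old was also over 0.05 when certain other single animals were left out.

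ENPP2, also known as autotaxin, makes lysophosphatidic acid and is released by maturing oligodendrocytes as well as by the choroid plexus. Its signal was 7029 and 3612 in the AD-like animals. It ran from 1663 to 7975 in old animals, with a median of 3781, and from 1220 to 11611 in young adults, with a median of 3324. The young adults alone covered this whole range, and the differences between groups were small beside this spread (0.18 ± 0.47 for old minus young adult and 0.39 ± 0.70 for AD-like minus old).

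UGT8, which makes galactosylceramide, the main glycolipid of myelin, read 202 and 89.4 in the AD-like animals. It ran from 19.1 to 262 in old animals, with a median of 135, and from 24.4 to 258 in young adults, with a median of 131. Both medians were nearly the same, and the difference was 0.15 ± 0.43 for old minus young adult animals.

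Enzymes too dim to test have values without a test. FA2H, which hydroxylates the fatty acids of these lipids, read 118 and 113 in the AD-like animals, 46.3 to 163 in old animals and 48.8 to 190 in young adults. ASPA, which frees acetate for lipid synthesis from N-acetylaspartate, read 117 and 36.1 in the AD-like animals, 7.80 to 83.2 in old animals and 4.25 to 69.2 in young adults. ENPP6, a choline phosphodiesterase of newly formed oligodendrocytes, was 49.4 and 59.0 in the AD-like animals, 2.89 to 39.1 in old animals and 3.38 to 46.4 in young adults. Both AD-like values of ENPP6 were above all others, but none of the 18 reached the 100 to which arrays were scaled. GAL3ST1, which adds sulfate to galactosylceramide, was also too dim to test, with 106 and 41.03 in the AD-like animals and medians of 13.8 in old animals and 36.2 in young adults.

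None of the 5 tested lineage factors had an unadjusted p under 0.05 in a comparison (limma). OLIG2, the factor that specifies the lineage, read 175 and 97.1 in the AD-like animals. It ran from 91.4 to 315 in old animals, with a median of 148, and from 157 to 341 in young adults, with a median of 196. Of the old animals 7 of 10 lay below every young adult, but the other 3 reached the upper part of the young adult range, and the difference of old minus young adult was -0.37 ± 0.28 (limma, adjusted p = 0.886). With the median signal of the array as a covariate, added after the data were seen, it was -0.57 with an unadjusted limma p of 0.00741 (adjusted p = 0.690). The difference of AD-like minus young adult was -0.59 ± 0.44 without that covariate. OLIG1, its relative, was too dim to test and read 54.3 and 91.0 in the AD-like animals, 7.62 to 138 in old animals and 33.4 to 103 in young adults.

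SOX10, which drives myelin gene transcription together with MYRF, read 414 and 232 in the AD-like animals. It ran from 246 to 507 in old animals, with a median of 386, and from 318 to 534 in young adults, with a median of 357. Its interval was among the narrowest, with a difference of -0.02 ± 0.22 between old and young adult animals. MYRF itself read 188 and 128 in the AD-like animals, 53.5 to 215 in old animals and 29.7 to 211 in young adults, with a difference of 0.32 ± 0.35 for old minus young adult.

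NKX2-2, a factor of cells about to differentiate, read 456 and 278 in the AD-like animals. It ran from 138 to 798 in old animals and from 180 to 702 in young adults. TCF7L2, an effector of WNT signalling that appears when precursors mature, read 3593 and 2681 in the AD-like animals. It ran from 1510 to 10580 in old animals, with a median of 4513, and from 1185 to 15139 in young adults, with a median of 2292. Of the old animals 9 of 10 lay above the young adult median, yet the highest value was that of young adult F2, and the difference was 0.62 ± 0.49 (limma, adjusted p = 0.888). The other 4 kept probe sets of TCF7L2 gave estimates from -0.08 to 0.28. Without young adult F2 the estimate of the brightest probe set was 1.09, with an unadjusted limma p of 0.0199 and an adjusted p of 0.527. In that fit 810 of all kept probe sets were higher at an unadjusted p under 0.05, beside 509 in the main fit.

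PDGFRA, the receptor through which precursors divide, read 162 and 322 in the AD-like animals. It ran from 174 to 301 in old animals, with a median of 253, and from 167 to 543 in young adults, with a median of 289. As for MBP, AD-like F1 was below every old animal and AD-like F2 above every one. The difference was -0.21 ± 0.24 for old minus young adult animals. CSPG4, the proteoglycan NG2 of the same precursors, was dim, with 24.2 and 27.4 in the AD-like animals, 5.50 to 96.5 in old animals and 4.13 to 96.7 in young adults. LPAR1, a receptor for the product of ENPP2, read 354 and 267 in the AD-like animals, 77.3 to 491 in old animals and 198 to 584 in young adults, with a difference of -0.35 ± 0.33 for old minus young adult.

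CRYM, a thyroid hormone binding protein that neurons also express, read 469 and 315 in the AD-like animals. It ran from 260 to 633 in old animals, with a median of 427, and from 29.3 to 461 in young adults, with a median of 324. Of the old animals 8 of 10 were above the young adult median and 3 above every young adult. The difference of old minus young adult was 0.79 ± 0.38 (limma, unadjusted p = 0.0498, adjusted p = 0.836). The lowest value was that of young adult M1, the next being 222, and without this animal the difference was 0.30 with an unadjusted limma p of 0.230. The p lay so close to the threshold that leaving out most other single animals, AD-like ones included, also moved it past 0.05.

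TF, the iron carrier transferrin, which oligodendrocytes make in the brain, read 167 and 97.4 in the AD-like animals. It ran from 23.0 to 185 in old animals, with a median of 62.4, and from 20.6 to 158 in young adults, with a median of 43.1. The differences of AD-like animals were 0.77 ± 0.59 from old and 1.15 ± 0.63 from young adult animals (limma, adjusted p = 0.972 and 1.00), and both animals stayed within the range of the old group. CARNS1, which makes carnosine, and PADI2, which converts arginines of myelin basic protein to citrulline, were among the 5 members of smallest p between AD-like and old animals. CARNS1 read 196 and 310 in the AD-like animals, 96.6 to 388 in old animals and 80.6 to 299 in young adults, with a difference of AD-like minus old of 0.59 ± 0.46. PADI2 read 114 and 82.3 in the AD-like animals, 79.3 to 241 in old animals and 88.6 to 210 in young adults, with a difference of -0.53 ± 0.34, and its second probe set gave 0.34 ± 0.67. NDRG1 gave 0.42 ± 0.38 for AD-like minus old and -0.11 ± 0.26 for old minus young adult.

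Further genes of oligodendrocytes and of cholesterol synthesis were taken as lists beside the members. Of 17 tested further oligodendrocyte genes 1 had an unadjusted p under 0.05 between old and young adult animals (limma), PPP1R14A, an inhibitor of a phosphatase (1.14 ± 0.42, adjusted p = 0.836). Over all kept probe sets the share with such a p was 5.91%. Between AD-like and old animals 14 of 17 estimates were above 0 with a median of 0.31, against 48.1% above 0 over all kept probe sets. All 17 were read on the same 2 AD-like animals, so they are not 17 separate observations. PIP4K2A, a lipid kinase, was the 1 gene with an unadjusted p under 0.05 (1.08 ± 0.49, limma adjusted p = 0.972), beside 4.84% of all kept probe sets. Between AD-like and young adult animals DOCK5 (1.54 ± 0.55) and PPP1R14A (1.48 ± 0.67) had an unadjusted p under 0.05, 2 of 17 genes beside 4.34% of all kept probe sets, with adjusted p of 0.998 and 1.00 (limma). The enzymes of cholesterol synthesis, of which 8 of 15 were tested, had no unadjusted p under 0.05 in any comparison (limma). Their median differences were 0.08 for old minus young adult and -0.13 for AD-like minus old animals.

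How members varied together was examined over the 18 arrays with 12 pairs of genes of like function, 8 of which had both genes bright enough to test. No pair passed by r after adjustment over the 12 pairs, which was done for r and rho apart. The closest was MBP with MAG, with r = 0.52 and rho = 0.55 (two-sided permutation test, p = 0.0286 and 0.0210, adjusted p = 0.208 and 0.126). Its r was 0.51 without the 2 arrays farthest from the median of MBP, 0.51 within the old animals and 0.58 within the 14 arrays with control RNA. After removal of the group means the r of this pair was 0.44. SOX10 with MYRF gave r = 0.50 and rho = 0.68 (two-sided permutation test, p = 0.0347 and 0.00240, adjusted p = 0.208 and 0.0288). This pair thus passed by rank and not by Pearson's r, which was 0.69 without the 2 arrays farthest from the median of SOX10 and also 0.69 within the 14 arrays.

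The other 10 pairs passed neither by r nor by rank. MBP and MOBP had r = -0.11 and rho = -0.08, and MBP and CNP r = -0.08 and rho = -0.09 (two-sided permutation test, p = 0.669, 0.749, 0.767 and 0.725). Without the 2 arrays farthest from the median of MBP these r were 0.052 and -0.66, so the value of MBP and CNP rested on those arrays. MOG and MAG had r = 0.15 and rho = 0.08 (two-sided permutation test, p = 0.560 and 0.741), and r was -0.28 without 2 arrays. MOBP and CLDN11 had r = 0.41 and rho = 0.51 (two-sided permutation test, p = 0.0866 and 0.0329), with r = 0.10 without 2 arrays. MBP with the lipid enzyme UGT8 gave r = -0.44 and rho = -0.36, and with TF r = -0.35 and rho = -0.42 (two-sided permutation test, p = 0.0637, 0.149, 0.150 and 0.0854), and these r were -0.40 and -0.41 without 2 arrays. The pairs with a dim gene, UGT8 with FA2H or ASPA, OLIG1 with OLIG2 and PDGFRA with CSPG4, had r from -0.30 to 0.31, and from -0.60 to -0.079 without 2 arrays each. The adjusted p of all 10 ran from 0.255 to 0.964 for r and from 0.132 to 0.948 for rho (permutation test).

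Different probe sets of the same gene were set against each other in the same way. In MBP the 2 kept probe sets had r = 0.30 over the 18 arrays, in MOG 0.25 and in CNP 0.15. In MOBP the 3 pairs had r from -0.43 to 0.21, and in PADI2 r was -0.38. The 2 probe sets of ENPP2 had r = 0.84, and the 10 pairs of TCF7L2 ran from 0.25 to 0.79. These values are descriptions over 18 arrays that share the same scaling.

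All 300 pairs of the 25 tested members were then described without a test. After removal of the group means the median r was -0.01, as over the 37493470 pairs of all tested genes, where it was 0.01. It was -0.03 over the 45 pairs of myelin proteins, none of which reached 0.6. The 10 pairs of lineage factors stood higher, at a median of 0.57 and a range of 0.16 to 0.75. With the median signal of the array removed as well, their median was 0.09 and their range -0.38 to 0.61. Of the 300 pairs, 6.00% had r of at least 0.6, against 3.99% of all gene pairs, and 2.33% had r of -0.6 or less, against 2.45%.

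High values were found among ENPP2, UGT8, OLIG2, SOX10, NKX2-2, TCF7L2 and LPAR1, 7 genes named after their values were seen. Unlike the shares above, the r given here are as measured, without removal of the group means, unless stated. ENPP2 and NKX2-2 had r = 0.85 (rho = 0.82), UGT8 and NKX2-2 r = 0.83 (rho = 0.81), and ENPP2 and TCF7L2 r = 0.81 (rho = 0.79). UGT8 and LPAR1 had r = 0.73 (rho = 0.70), and OLIG2 and SOX10 r = 0.73 (rho = 0.68). All 21 pairs of these 7 genes were positive, with a median r of 0.60. This median was 0.66 after removal of the group means, 0.70 within the old animals and 0.62 within the 14 arrays. MOBP followed ENPP2 (r = 0.71) and CLDN11 followed SOX10 (r = 0.68). Among the negative pairs were UGT8 with NDRG1 (r = -0.68, rho = -0.61) and MAG with TCF7L2 (r = -0.67, rho = -0.63).

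**Figure D4:**
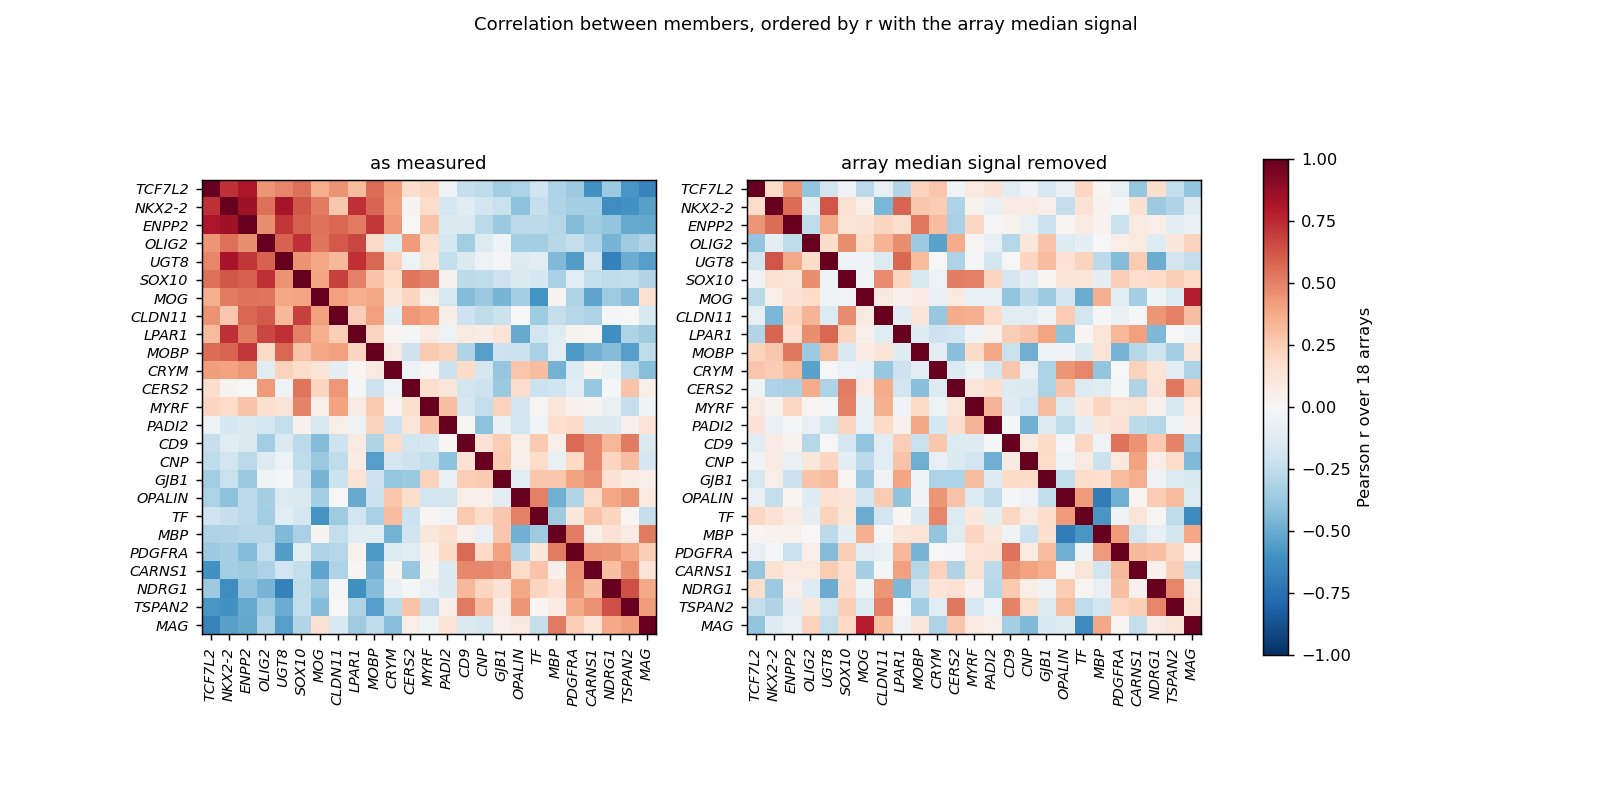
Pearson r between the 25 tested members over the 18 arrays, as measured on the left and after removal of the array median signal on the right, from blue (-1) through white (0) to red (1). Genes run in the order of their r with the array median signal; the red block at the upper left, with r of 0.85 for ENPP2 and NKX2-2, is paler on the right, where that r is 0.56.

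Of these 7 genes, 6 were related to the median signal of the whole array by the adjusted test of r. The log2 values of TCF7L2 (r = -0.82, rho = -0.87), NKX2-2 (r = -0.82, rho = -0.85) and ENPP2 (r = -0.80, rho = -0.82) fell as the median signal of the array rose (two-sided permutation test with adjustment over 8660 genes, adjusted p of r = 0.00167, 0.00127 and 0.00263, of rho = 0.000506, 0.000734 and 0.00198). Before adjustment the p of rho for TCF7L2 was 1e-05, the smallest that 100000 permutations can give. OLIG2, UGT8 and SOX10 of the 7, and MOG and CLDN11 besides, also had a negative r that passed, from -0.72 to -0.59. LPAR1 passed by rank and not by r (r = -0.55, rho = -0.62, permutation test, adjusted p = 0.0561 and 0.0307). The same held for MOBP, outside the 7 (r = -0.55, rho = -0.64, permutation test, adjusted p = 0.0600 and 0.0249). MAG had a positive r of 0.60 (two-sided permutation test, adjusted p of r = 0.0412, of rho = 0.100). In all 9 of 25 members passed by r (36%), against 25.1% of all 8660 tested genes. Without the 2 arrays farthest from the median of this property r was -0.79 for TCF7L2, -0.75 for NKX2-2, -0.80 for ENPP2 and 0.51 for MAG. Within the 14 arrays with control RNA it was -0.79, -0.82, -0.78 and 0.78. When the array median signal was removed from each gene, the median r of the 21 pairs was 0.18 and 14 of them were positive, and after quantile normalization it was 0.53 with all 21 positive. What sets the median signal of an array was not tested.

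**Figure D5:**
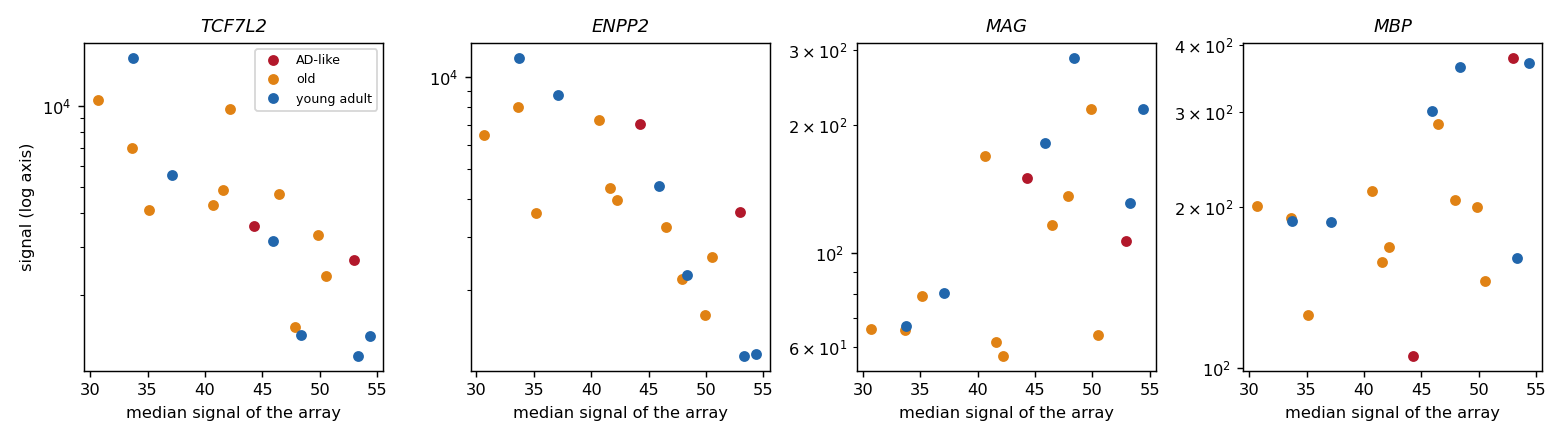
Signal (vertical log axis) of TCF7L2, ENPP2, MAG and MBP against the median signal of the array in AD-like, old and young adult animals, with 1 point for each of 18 animals. TCF7L2 (r = -0.82) and ENPP2 (r = -0.80) fall from left to right, MAG rises (r = 0.60), and MBP (r = 0.39) did not pass the adjusted test.

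Markers of other cell types were set against the same 7 genes. These r are as measured, and the array median signal, to which most of the 7 genes were related, was not removed from them. ENPP2 had r = 0.71 with TTR, which the choroid plexus makes in large amounts, and TCF7L2 had r = 0.71 with it, whereas FOLR1, the other tested choroid plexus marker, had r = -0.30 and -0.11 with these genes. Each of the 7 genes had a positive r with TTR, from 0.31 (OLIG2) to 0.74 (NKX2-2). Each had a negative r with FOLR1, from -0.59 (LPAR1) to -0.11 (TCF7L2). TTR read 543 and 2669 in the AD-like animals, 194 to 19297 in old animals and 13.1 to 23832 in young adults. Over all 5 choroid plexus markers, 2 of which had a kept probe set, the summed signal was 4303 and 4702 in the AD-like animals, 1103 to 19983 in old animals and 1512 to 25558 in young adults, and none of the 5 was at 0 on any array. The highest values of TTR, ENPP2, TCF7L2 and the choroid plexus sum in young adults were all those of young adult F2. For other cell types the r of the 7 genes with the tested markers went both ways. With 7 astrocyte markers 27 of 49 values were above 0, from -0.52 (NKX2-2 with ALDH1L1) to 0.81 (TCF7L2 with SLC1A2), and UGT8, for example, had 0.77 with AQP4 and -0.37 with GJA1. With 9 neuron markers 51 of 63 were above 0, from -0.50 (OLIG2 with GAD1) to 0.78 (LPAR1 with SLC17A7). Values ran from -0.59 to 0.47 with 2 endothelial markers and from -0.19 to 0.60 with 2 microglia markers. The summed signal of the 10 astrocyte markers was 9356 and 12388 in the AD-like animals, 7857 to 19237 in old animals and 6659 to 21316 in young adults, and that of the 10 neuron markers 25224 to 56362, 37106 to 63586 and 17616 to 64238. None of these markers was at 0 on any array, but the same held for every list, so it does not show that a marker was detected. The part of other cell types in the relations between members was not tested.

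The genes most like the mean of MBP, MOBP, MOG, MAG, CNP and CLDN11 were sought among the genes outside the list. The 8 genes of highest r with that mean over the 18 arrays were STMN3 (0.77), HLA-E (0.77), TELO2 (0.77), PRLH (0.75), PBX2 (0.74), ZNF79 (0.74), DAGLB (0.74) and EGR1 (0.73). They were picked as the highest among the tested genes outside the list, which favours high r, and are given as a description without a test. The 6 genes themselves followed their mean unevenly. Their r with it was -0.18 for CNP, 0.38 for MOBP, 0.47 for MAG, 0.48 for MBP, 0.50 for CLDN11 and 0.68 for MOG. The mean of the 6 z values was 0.04 and 0.21 in the AD-like animals, -0.75 to 0.57 in old animals and -0.74 to 0.44 in young adults.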

How the data were processed

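Total RNA of the temporal cortex of 18 lemurs was labelled by the standard Affymetrix protocol and hybridised to human arrays. The intensity values were deposited by the authors as linear signals made with GCOS 1.2 and scaled to a trimmed mean of 100 (2% trimmed at each side, checked on the files). Probe sets were named through the platform annotation, and of 54675, 62 controls were left out. Probe sets with several symbols (1801) or none (11721) were not used for a member, and detection calls were not used here. Signals were turned to log2(signal + 16).

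Kept probe sets (third-highest signal of at least 150) were fitted with limma 3.58.1 in R 4.3.3, with 3 groups and no covariate, and p values were adjusted over all 14567. The main fit left out replicate blocks, since equal label numbers are different animals. Correlations used Python 3.11.15, numpy 2.4.6 and scipy 1.17.1 with 100000 permutations. Scripts were tested on simulated data. The members, lists and tests were chosen with earlier results of these data known. Named genes are all 42 members, those of smallest p in each further list, and the 8 genes most like the myelin mean; the 7 co-varying genes and the markers named beside them were chosen after their values were seen. Alternatives covered offset, normalization, filter, test, variance model, sex, females only, label number, the batch of control RNA, the GAPDH 3' to 5' ratio, the probe set rule and each animal left out; the array median signal was added after the data were seen. How RNA extraction was grouped is not given in the sources used here. The number of arrays limits the precision.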

Additional observations from a re-analysis of the deposited data

Results flagged for a closer look

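In 50 sets of values (25 tested members in the old and in the young adult group) the lowest or highest animal was set against its nearest neighbour by Dixon's ratio on the log2 scale, and 5 stood apart. Chance alone gives about 1 in 20. CNP was 33.4 in old F4, the next old animal being at 73.1, and CLDN11 was 24.4 in the same animal, with the next at 131. Among young adults CERS2 was 57.9 in F1 with the next at 128, CRYM was 29.3 in M1 with the next at 222, and OLIG2 was 341 in F2 with the next at 208. The array of old F4 also had the highest GAPDH 3' to 5' ratio of the 18 (1.56 on the log2 scale) and the highest poly-A control signal (5719). Their part in these values was not tested.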

How the results depend on the processing

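No member passed after adjustment under any alternative. Over the 25 tested members the smallest adjusted p there was 0.186 (limma or t-test). With no filter the smallest adjusted p over all probe sets was 0.0862 (limma), so none of the 17 dim members passed either. The counts of tested members with an unadjusted p under 0.05, 1 in each comparison, moved as follows. With no filter the count is over all 42 members, the 17 too dim to test in the main fit included, and not over 25. Between old and young adult animals the count was 0 with an offset of 1, quantile normalization, the methods' t-test on linear signals, females only, the batch of control RNA as a block or the GAPDH ratio as a covariate, and 2 with no filter. Between AD-like and old animals the count was 0 with an offset of 50, an intensity trend with robust variances or sex as a covariate. It was also 0 with females only or the batch as a block, and 3 with no filter. Between AD-like and young adult animals it was 0 with the methods' t-test or the batch as a block. It was 2 with no filter, sex as a covariate, females only or the array median signal as a covariate. With a mean signal of at least 200 the count was 0 in both comparisons, but CERS2, with a mean signal of 120, is left out there before any test. The share of all kept probe sets with such a p also moved for AD-like against old, to 12.02% with females only and 11.02% with sex as a covariate, and for AD-like against young adult to 8.35% and 8.21%, and with no filter it was 5.36%, 5.74% and 4.93% in the 3 comparisons. Settings that keep 1 AD-like animal assume that it varies like the others, and their counts for the AD-like comparisons are not given. For old against young adult the count of members was 0 without AD-like F1 or F2, old F3 to F7, M1 or M2, or young adult F1, F3 or M1. It was 3 without young adult F2, where 810 of all 14567 kept probe sets were higher and 442 lower, beside 509 and 352 in the main fit. For AD-like against old the count was 0 without old F1, F3, F5, F6, M1 or M3, or young adult F3, F4, M1 or M2. For AD-like against young adult it was 3 without young adult M2 and 2 without young adult M1. All kept probe sets gave 285 higher and 534 lower, and 171 and 433, in these 2 fits, beside 165 and 467 in the main fit. With each animal left out in turn the count ran from 0 to 3 between old and young adult animals. The label number as a replicate block gave 2, 3 and 2 members, beside 6.75%, 15.5% and 12.7% of all kept probe sets; equal numbers are different animals, and the median correlation of deviations between same-numbered animals was 0.13 (from -0.16 to 0.50), against 0.01 for other animals. CERS2 changed sign between AD-like and old animals without AD-like F2 (0.071) and on the 14 arrays (0.019), and ran from -2.19 to 0.071 with each animal left out. Of the 25 members, 14, 19 and 15 changed sign in at least 1 alternative in the 3 comparisons. By r, 0 of the 12 pairs passed, and 1 passed with females only (UGT8 and FA2H), with the mean over probe sets (MBP and MAG) and with the array median signal removed (MOG and MAG), and 0 to 1 without 1 animal (1 without old M3). The median r among members, -0.01, was 0.021 after quantile normalization, 0.014 on the 14 arrays and -0.032 to 0.018 without 1 animal. The cause of these changes was not tested. The low signal of most members, the human probes and the 2 AD-like animals limit what can be seen.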

Other observations

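The effect of age was also estimated separately in females and males. The 2 sexes differed at an unadjusted p under 0.05 (limma) in 2 of 25 members, against 4.85% of all kept probe sets, and in none after adjustment, where the smallest adjusted p over all kept probe sets was 0.124. LPAR1 gave a difference of old minus young adult of -1.31 in males and 0.07 in females, and CNP one of -0.65 in males and 0.64 in females (limma, adjusted p of the difference between sexes = 0.981 for both). There were 3 old and 2 young adult males, and of these old M1, old M2 and young adult M2 were on arrays without control RNA. All old and young adult females were on arrays with it, so sex is partly tied to the control RNA batch in these estimates.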
